A study of Brassica rapa subsp. pekinensis with 4 samples.

Results

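The circadian clock is the daily oscillator that lets a plant anticipate dawn and dusk, and the CYCLING DOF FACTORs (CDFs) carry its output to the photoperiodic control of flowering. Here, 34 *Arabidopsis thaliana* loci of the clock and of the CDF family were followed in Chinese cabbage (*Brassica rapa*), and every Bra gene whose deposited Arabidopsis match was one of these loci was taken as a member. This gave 59 members of 36698 listed genes, matching 31 of the 34 loci, with up to 3 copies per locus. *FKF1*, *ZTL* and *BOA* were not analysed under these names, since no listed gene in the tables used here carried them as its match. The gene that the study names *BrFKF1*, Bra038832, is a member here through its deposited match to *LKP2*. Of the members, 58 passed the filter on low counts, and the exception was the *LWD2* match Bra019798, with 4.58 and 1.82 normalized counts in the 35D Ver libraries, against 1.96 and 1.22 in the 0D Ver libraries.

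Poly(A) RNA was sequenced from whole shoots of the early-bolting inbred line “4004” in 2 groups of 2 libraries. The 35D Ver plants had been kept for 35 days at 5 °C with 12 h of light and 12 h of dark and were 7 weeks old, and the 0D Ver plants had grown only at 23 °C with 16 h of light and 8 h of dark and were 2 weeks old. The growth at 23 °C with the long day preceded the cold in the 35D Ver plants too, and the study's methods describe pooled plants for each library, all harvested at one point of the light/dark cycle. Age, temperature, day length and the length of the dark period before harvest thus differ together with vernalization, and their parts in any value below cannot be told apart. The ages are those of the labels, which put 2 weeks at 23 °C before the cold, whereas the study's methods start the cold after 1 week. The hour of harvest is not given in the sources used here, so each value is 1 time point of genes that cycle over the day. The study's methods speak of independent biological replicates, with duplicates of line “4004” taken from earlier data. The libraries here match these duplicates in line and number. The methods do not say whether the pooling and the single harvest point also held for them. The labels do not say that the 2 libraries of a group came from separate plantings, and the p-values measure only the spread between these libraries.

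In Arabidopsis, the morning MYB factors CCA1 and LHY repress genes of later hours, such as *GI*, *TOC1* and the genes of the evening complex (ELF3, ELF4 and LUX), and the pseudo-response regulators (PRRs), produced one after another through the day, repress *CCA1* and *LHY* in turn. RVE8 and its close relatives, MYB-like factors that act with the LNK coactivators, activate evening genes instead. The CDFs repress *CO* and *FT* in the morning, until GI with the F-box proteins FKF1, ZTL and LKP2 leads to their breakdown, and this timing lets the plant measure day length. The members were put into classes by the time of day at which their RNA is known to peak in Arabidopsis, namely dawn to morning, midday to afternoon, and evening, and members for which no peak was assigned here form a last group. *GI* was counted in the midday to afternoon class with *PRR5* and *PRR7*.

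The study designed qPCR primers for 6 of the members, and their sequences are shown because the primer table names the copy each pair was meant for, such as Bra035933 for *TOC1*. Whether a pair also fits another copy was not tested. The study describes *BrCCA1*, *BrLHY* and *BrTOC1* as induced by vernalization in either line, and *BrGI* as not affected. The primers are written 5′ to 3′ as in the study's primer table.
*BrCCA1* (Bra004503) forward: aggtgtaccagtggctcaaacgct
*BrCCA1* (Bra004503) reverse: gcgtttgatgcaggcagagaggtgt
*BrLHY* (Bra033291) forward: tggaagggcctggcaacgtatagaa
*BrLHY* (Bra033291) reverse: tgctgatgggccattattgccaggt
*BrCIR1* (Bra039503) forward: gcaagctccttccggatgaa
*BrCIR1* (Bra039503) reverse: tggtctcagcttcaggagaca
*BrPRR5* (Bra036517) forward: cctgagaagatcctctcttcatcct
*BrPRR5* (Bra036517) reverse: ggtggaccaggtgagtcagc
*BrTOC1* (Bra035933) forward: cccaagtgatccaaatacaaaca
*BrTOC1* (Bra035933) reverse: tgaggttcaggaagatgattcaa
*BrGI* (Bra024536) forward: gctttcagaggctaaggctgtatc
*BrGI* (Bra024536) reverse: gatcctcgagtagcaatggtaggt

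Summed counts were 23428420 and 22709649 in the 35D Ver libraries, against 21315738 and 17221386 in the 0D Ver libraries, and values are given as normalized counts, that is, counts divided by a library size factor. Leaf markers (13 genes of 5 loci) summed to 332983 and 257273 normalized counts in the 35D Ver libraries, against 280068 and 274682 in the 0D Ver libraries. This sum hides changes of single markers, since 3 were higher (the *RCA* copies, log2(fold-change) 0.55 to 0.59) and 4 were lower (the *LHCA1* and *LHCB3* copies, -0.74 to -0.60) by limma. All 8 root marker genes stayed under 10 in every library. The 13 floral marker genes summed to 499 and 379 in the 35D Ver libraries, against 458 and 626 in the 0D Ver libraries. By limma, 3 of them were higher under 35D Ver, the low *PI* copies (log2(fold-change) 1.14 to 1.23). The *SEP3* copies, with most of the counts, did not pass (-0.51 to -0.36). With bulk shoots, fewer cells of a type and less RNA per cell cannot be told apart.

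More clock genes were higher than lower under 35D Ver. At an adjusted p below 0.05 (limma, over 29691 genes), 34 of the 58 tested members were higher and 9 were lower, and 15 did not pass. Over all tested genes, 20.1% were higher and 20.5% were lower, or 40.6% in either direction. Some low members passed the filter only with the help of the 35D Ver libraries, which favours a rise. With at least 10 scaled counts required in every library, 30 of 54 members were higher and 9 lower (limma). This stands beside 5416 higher and 5503 lower of 27736 genes. The median log2(fold-change), 35D Ver over 0D Ver, was 0.51 over the members and -0.014 over all tested genes, and the members ranged from -1.22 to 5.40. At a log2(fold-change) of at least 1, 21 members were higher and 3 lower, beside 5.97% and 7.76% of all tested genes. With a minimum of 500 normalized counts also required, taken here on the mean of the higher group, 8 members passed, beside 3.10% of all tested genes. The mean log2 difference was above 0 in 46 members, beside 48.8% of all tested genes. The 2 groups of libraries did not overlap in 52 of the 58 members, beside 73.1% of all tested genes. A call already favours genes without overlap, so non-overlap below is a description and no further support, for called genes and for others. For 1 gene at a time, the exact two-sided permutation p of this design is never below 0.333, so the calls rest on the spread that limma pools across genes.

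**Figure D1:**
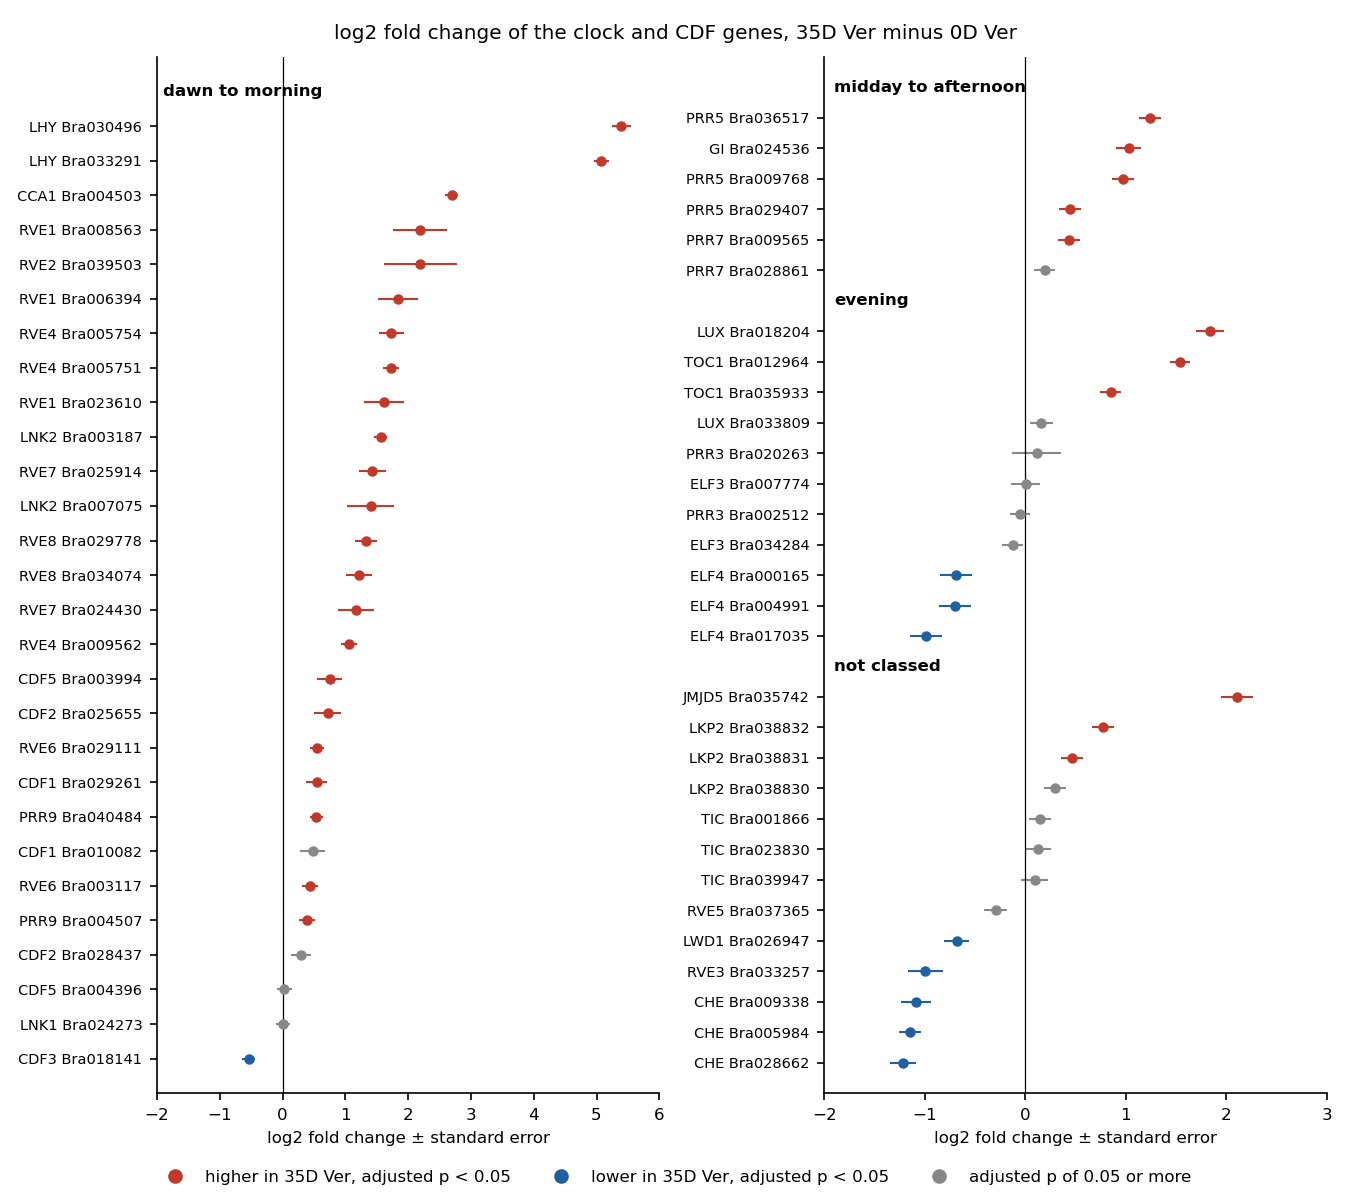
log2 fold change of the 58 tested clock and CDF genes, 35D Ver minus 0D Ver, by the phase class of the Arabidopsis locus. Points are estimates from 2 libraries per condition, bars are 1 standard error, colours give the call, and the panels have different horizontal ranges. Both *LHY* copies lie above 5, the dawn to morning class has 1 gene called lower (*CDF3*), and the evening class has genes on both sides of 0.

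Most members of the dawn to morning and of the midday to afternoon class were higher under 35D Ver, and the evening class was split. Of the 28 tested genes of the dawn to morning class, 23 were higher and 1 was lower, with a median log2(fold-change) of 1.19, and 16 of them rose by at least 1 on the log2 scale. Without the 7 *CDF* genes, which include the 1 lower gene, 20 of 21 were higher and none was lower (limma), with a median of 1.43. These counts include the *RVE1* copies and *LNK2* Bra007075, which passed the low-count filter only with the help of the 35D Ver libraries. In the midday to afternoon class, 5 of 6 were higher, with a median of 0.71. The evening class had 3 higher and 3 lower of 11, with a median of 0.00, and the members without an assigned peak had 3 higher and 5 lower of 13, with a median of 0.09. The share called higher was thus 82.1% in the dawn to morning class, 83.3% in the midday to afternoon class and 27.3% in the evening class, beside the 20.1% of all tested genes. The difference between the classes was not tested, and the classes were chosen with earlier results of these data known.

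**Figure D2:**
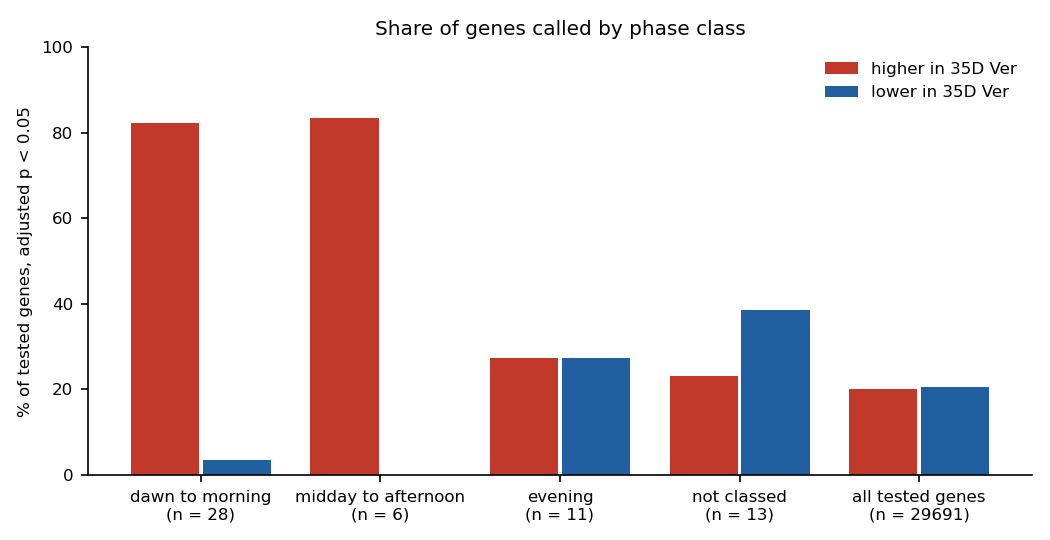
Share of tested genes called higher or lower under 35D Ver (limma, adjusted p below 0.05) in each phase class and over all tested genes, with the number of genes under each pair of bars. The dawn to morning and the midday to afternoon class stand above 80% called higher, and the evening class has 27.3% in each direction.

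*CCA1* and *LHY*, the paired MYB repressors at the core of the oscillator, rose most of all members. *BrLHY* (Bra030496, match AT1G01060) had normalized counts of 1344 and 1263 under 35D Ver, against 33.4 and 26.9 under 0D Ver (log2(fold-change) 5.40 ± 0.15 SE, limma adjusted p = 3.91e-07). *BrLHY* (Bra033291), the copy for which the study had primers, had 1595 and 1552 under 35D Ver, against 45.1 and 46.4 under 0D Ver (log2(fold-change) 5.07 ± 0.12 SE, limma adjusted p = 2.86e-07). *BrCCA1* (Bra004503, match AT2G46830), the only *CCA1* match, had 1840 and 1912 under 35D Ver, against 288 and 289 under 0D Ver (log2(fold-change) 2.69 ± 0.10 SE, limma adjusted p = 1.40e-06). In all 3 genes both 35D Ver libraries lay far above both 0D Ver libraries, and the replicates of a group lay close to each other. Summed over its copies, *LHY* had normalized counts of 2938 and 2814 under 35D Ver, against 78.5 and 73.2 under 0D Ver. *CCA1* ranked 214 and *LHY* (Bra033291) ranked 17, counted from the largest increase, by log2(fold-change) among all tested genes.

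Of the REVEILLE genes, MYB-like relatives of *CCA1* and *LHY*, 13 of 15 rose, 1 fell and 1 did not pass. This stands beside 20.1% higher and 20.5% lower of all tested genes, and the median log2(fold-change) of the 15 was 1.33. The *RVE4* and *RVE8* copies, whose products activate evening genes in Arabidopsis, were all higher. *BrRVE4* (Bra005751, match AT5G02840) had normalized counts of 428 and 418 under 35D Ver, against 130 and 124 under 0D Ver (log2(fold-change) 1.73 ± 0.12 SE, limma adjusted p = 3.05e-05). *BrRVE4* (Bra005754) had 85.2 and 90.3 under 35D Ver, against 24.5 and 26.9 under 0D Ver (log2(fold-change) 1.73 ± 0.20 SE, limma adjusted p = 3.50e-04). *BrRVE4* (Bra009562), with 399 and 419 under 35D Ver, against 208 and 183 under 0D Ver, rose less (log2(fold-change) 1.06 ± 0.13 SE, limma adjusted p = 3.91e-04). The 35D Ver values of every *RVE4* copy exceeded its 0D Ver values. For *RVE8*, Bra029778 had 212 and 294 under 35D Ver, against 97.1 and 100 under 0D Ver (log2(fold-change) 1.33 ± 0.18 SE, limma adjusted p = 7.27e-04). The other copy, Bra034074, had 133 and 182 under 35D Ver, against 58.9 and 74.5 under 0D Ver (log2(fold-change) 1.22 ± 0.21 SE, limma adjusted p = 0.00225). The groups did not overlap in any of these 5 genes, and both *RVE8* copies were higher in replicate 2 than in replicate 1 under 35D Ver. The *RVE6* copies, of the same activator group, had smaller log2(fold-change) values. *BrRVE6* (Bra029111) had 654 and 663 under 35D Ver, against 430 and 469 under 0D Ver (log2(fold-change) 0.55 ± 0.11 SE, limma adjusted p = 0.00464). Bra003117 had a log2(fold-change) of 0.44 (limma adjusted p = 0.0247), and it passed in none of the 4 fits that each left out 1 library (adjusted p = 0.0512 to 0.129).

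*RVE1*, *RVE2* and *RVE7* are clock-controlled genes whose products act on clock output in Arabidopsis, on growth among other things. *BrRVE1* (Bra006394, match AT5G17300) had normalized counts of 34.8 and 49.2 under 35D Ver, against 13.7 and 8.54 under 0D Ver (log2(fold-change) 1.84 ± 0.32 SE, limma adjusted p = 0.00244). Bra008563 had 22.9 and 39.2 under 35D Ver, against 8.83 and 3.66 under 0D Ver (log2(fold-change) 2.19 ± 0.43 SE, limma adjusted p = 0.00459). Bra023610 had 22.9 and 18.2 under 35D Ver, against 5.89 and 6.10 under 0D Ver (log2(fold-change) 1.62 ± 0.32 SE, limma adjusted p = 0.00436). All 3 *RVE1* copies are low genes, so their values carry much counting error. They passed the filter on low counts only with the help of the 35D Ver libraries, a selection that favours a rise. Their groups did not overlap, but neither this nor their calls are further support. For *RVE7*, Bra025914 had 231 and 338 under 35D Ver, against 118 and 90.3 under 0D Ver (log2(fold-change) 1.43 ± 0.21 SE, limma adjusted p = 0.00125). Bra024430 had 44.9 and 77.5 under 35D Ver, against 28.5 and 23.2 under 0D Ver (log2(fold-change) 1.17 ± 0.29 SE, limma adjusted p = 0.0128), and it did not pass without 35D Ver replicate 2 (adjusted p = 0.0873) or without 0D Ver replicate 2 (adjusted p = 0.0887). *BrRVE2* (Bra039503, match AT5G37260), named *BrCIR1* in the study, had 237 and 444 under 35D Ver, against 112 and 43.9 under 0D Ver (log2(fold-change) 2.19 ± 0.58 SE, limma adjusted p = 0.0482). Its replicates lay further apart than those of any other member that rose by at least 1 on the log2 scale, and its call was lost without 35D Ver replicate 1 (adjusted p = 0.199), without 35D Ver replicate 2 (adjusted p = 0.280) and once the replicate number entered as a block (adjusted p = 0.220), as well as with total counts only, no filter or voom weights (adjusted p = 0.0524 to 0.0845).

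The remaining REVEILLE genes went the other way or did not pass. *BrRVE3* (Bra033257) fell, with 49.5 and 49.2 normalized counts in the 35D Ver libraries, against 97.1 and 101 in the 0D Ver libraries (log2(fold-change) -0.99 ± 0.18 SE, limma adjusted p = 0.00276). *BrRVE5* (Bra037365) had 336 and 340 under 35D Ver, against 397 and 433 under 0D Ver (log2(fold-change) -0.29 ± 0.11 SE, limma adjusted p = 0.0703). Both belong to the RVE8 group of activators in Arabidopsis. In each of them the 35D Ver libraries lay below the 0D Ver libraries, although only *RVE3* passed. Such non-overlap was seen in 73.1% of all tested genes.

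**Figure D3:**
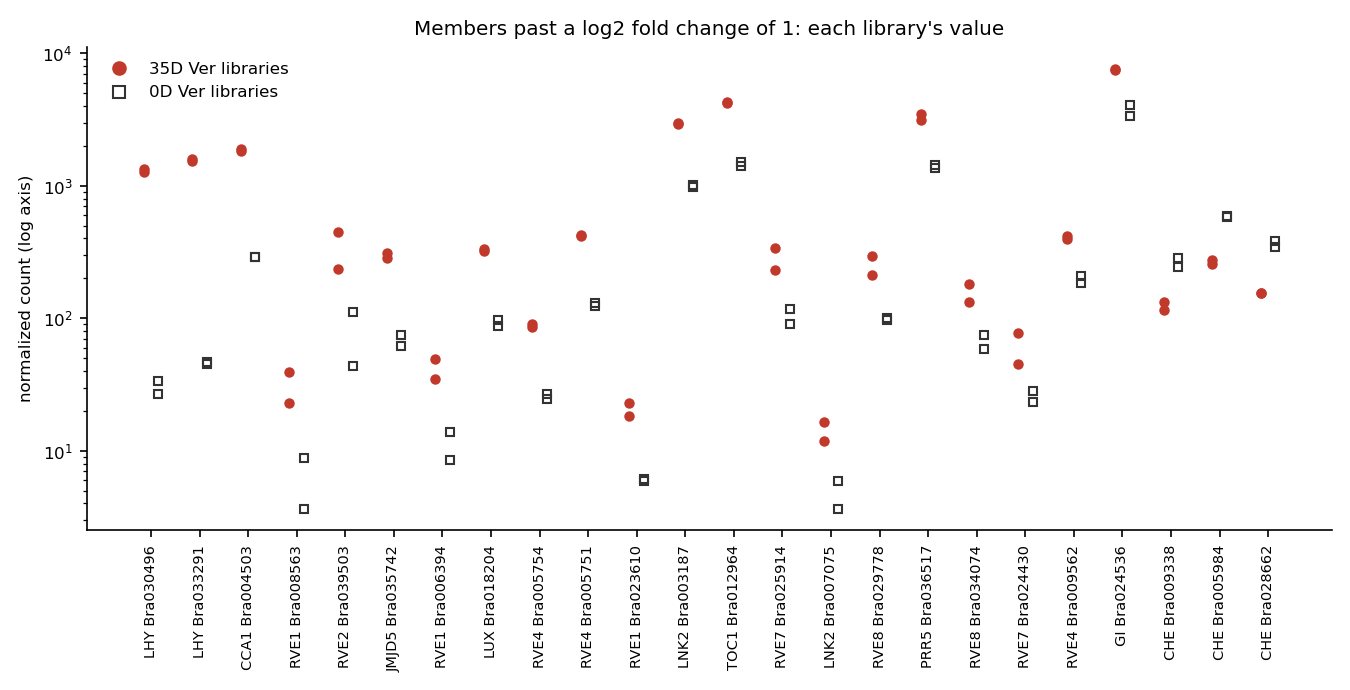
Normalized counts (log axis) of the 24 members called with a log2 fold change of at least 1 in size, 1 point per library, with 35D Ver left of 0D Ver for each gene. The 2 groups do not overlap in any of these genes, and the 3 *CHE* copies at the right are the ones that lie lower under 35D Ver. The genes were chosen by their calls in these same libraries, which favours non-overlap, and 73.1% of all tested genes do not overlap either.

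*LNK2* encodes a coactivator that works with the RVE8 group. *BrLNK2* (Bra003187, match AT3G54500) had normalized counts of 2995 and 2904 under 35D Ver, against 975 and 1022 under 0D Ver (log2(fold-change) 1.56 ± 0.10 SE, limma adjusted p = 1.79e-05). Its low copy Bra007075 had 11.9 and 16.4 under 35D Ver, against 5.89 and 3.66 under 0D Ver (log2(fold-change) 1.40 ± 0.38 SE, limma adjusted p = 0.0178), and it did not pass without 35D Ver replicate 2 (adjusted p = 0.107) or without 0D Ver replicate 2 (adjusted p = 0.110). *BrLNK1* (Bra024273), the match of the related coactivator gene, had 955 and 953 under 35D Ver, against 898 and 1004 under 0D Ver (log2(fold-change) 0.01 ± 0.11 SE, limma adjusted p = 0.967). *LNK2* thus rose in both copies, whereas the libraries of *LNK1* overlapped between the groups. Bra007075 passed the filter on low counts only through the 35D Ver libraries, which favours a rise, so its call is no further support.

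Of the PRR genes and *TOC1*, most of which encode successive repressors of *CCA1* and *LHY*, 8 of 11 genes rose and none fell (limma). This stands beside 20.1% higher and 20.5% lower of all tested genes, and the median log2(fold-change) of the 11 was 0.45. *BrTOC1* (Bra012964, match AT5G61380) had normalized counts of 4226 and 4280 under 35D Ver, against 1516 and 1408 under 0D Ver (log2(fold-change) 1.54 ± 0.10 SE, limma adjusted p = 2.18e-05). *BrTOC1* (Bra035933), the copy with primers, had 3029 and 3277 under 35D Ver, against 1767 and 1727 under 0D Ver (log2(fold-change) 0.85 ± 0.10 SE, limma adjusted p = 4.39e-04). Both *TOC1* copies thus rose, although *TOC1* belongs to the evening class. For *PRR5* (AT5G24470), Bra036517 had 3135 and 3476 under 35D Ver, against 1361 and 1433 under 0D Ver (log2(fold-change) 1.24 ± 0.11 SE, limma adjusted p = 7.94e-05). Bra009768, the copy with the most counts, had 5236 and 5837 under 35D Ver, against 2833 and 2805 under 0D Ver (log2(fold-change) 0.97 ± 0.11 SE, limma adjusted p = 2.99e-04). All 4 of these genes had both 35D Ver libraries above both 0D Ver libraries. The third *PRR5* copy, Bra029407, had a log2(fold-change) of 0.45 (limma adjusted p = 0.0103), and it did not pass without 35D Ver replicate 2 (adjusted p = 0.0539) or without 0D Ver replicate 1 (adjusted p = 0.0755).

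The other PRR genes had log2(fold-change) values of at most 0.54. *BrPRR7* (Bra009565) had normalized counts of 6081 and 6015 under 35D Ver, against 4312 and 4650 under 0D Ver (log2(fold-change) 0.43 ± 0.11 SE, limma adjusted p = 0.0133), and it did not pass without 0D Ver replicate 1 (adjusted p = 0.1004) or without 0D Ver replicate 2 (adjusted p = 0.0510). The other *PRR7* copy, Bra028861, had a log2(fold-change) of 0.20 (limma adjusted p = 0.165). The 2 *PRR7* copies had both 35D Ver libraries above both 0D Ver libraries, although only Bra009565 passed. Such non-overlap was seen in 73.1% of all tested genes. *BrPRR9* (Bra040484), a match of the earliest PRR gene of the day, had 1182 and 1295 under 35D Ver, against 893 and 810 under 0D Ver (log2(fold-change) 0.54 ± 0.11 SE, limma adjusted p = 0.00528). Its copy Bra004507 had a log2(fold-change) of 0.39 (limma adjusted p = 0.0316) and passed only with 35D Ver replicate 2 and both 0D Ver replicates in the fit (adjusted p = 0.0916 to 0.159 without one of them), and a block for the replicate number also ended the call (adjusted p = 0.0658). *BrPRR3* (Bra002512) had 1411 and 1377 under 35D Ver, against 1460 and 1429 under 0D Ver (log2(fold-change) -0.05 ± 0.10 SE, limma adjusted p = 0.708), and Bra020263 had a log2(fold-change) of 0.11 (limma adjusted p = 0.742). Neither *PRR3* copy passed.

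*GI*, which stabilizes the F-box proteins that remove the CDFs, TOC1 and PRR5, had 1 match. *BrGI* (Bra024536, match AT1G22770) had normalized counts of 7545 and 7618 under 35D Ver, against 4065 and 3383 under 0D Ver (log2(fold-change) 1.03 ± 0.12 SE, limma adjusted p = 4.13e-04). Both 35D Ver libraries lay close together and above both 0D Ver libraries. The study, by contrast, describes *BrGI* as not affected by vernalization, and the source of this difference was not tested. Of the blue-light F-box genes, only *LKP2* was listed as a match, with 3 neighbouring identifiers. Bra038832, which the study names *BrFKF1*, had 3024 and 3428 under 35D Ver, against 1867 and 1898 under 0D Ver (log2(fold-change) 0.77 ± 0.11 SE, limma adjusted p = 8.82e-04). Bra038831 had a log2(fold-change) of 0.46 (limma adjusted p = 0.0105), and it passed only with 35D Ver replicate 2 and both 0D Ver replicates in the fit (adjusted p = 0.0561 to 0.0681 without one of them). Bra038830 had a log2(fold-change) of 0.30 (limma adjusted p = 0.0625). Of these 3 copies, Bra038832 passed in every alternative.

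Of the evening complex genes, 1 of 7 was higher and 3 were lower, beside 20.1% and 20.5% of all tested genes, with a median log2(fold-change) of -0.12. All 3 copies of *ELF4*, which encodes a small protein that helps to bring the complex to its targets, fell. *BrELF4* (Bra017035, match AT2G40080) had normalized counts of 156 and 124 under 35D Ver, against 258 and 295 under 0D Ver (log2(fold-change) -0.99 ± 0.16 SE, limma adjusted p = 0.00167). Bra000165 had 152 and 128 under 35D Ver, against 206 and 245 under 0D Ver (log2(fold-change) -0.69 ± 0.16 SE, limma adjusted p = 0.00904). Bra004991 had 137 and 114 under 35D Ver, against 187 and 221 under 0D Ver (log2(fold-change) -0.70 ± 0.16 SE, limma adjusted p = 0.00941). The 35D Ver libraries lay below the 0D Ver libraries in each copy, but Bra000165 and Bra004991 did not pass without 0D Ver replicate 2 (adjusted p = 0.0785 and 0.0801). Of the copies of *LUX*, the DNA-binding subunit, *BrLUX* (Bra018204, match AT3G46640) rose, with 324 and 333 under 35D Ver, against 96.2 and 86.7 under 0D Ver (log2(fold-change) 1.84 ± 0.14 SE, limma adjusted p = 3.90e-05). *BrLUX* (Bra033809) had 362 and 369 under 35D Ver, against 328 and 326 under 0D Ver (log2(fold-change) 0.16 ± 0.11 SE, limma adjusted p = 0.282). In Bra018204 the 35D Ver libraries lay far above the 0D Ver libraries, and in Bra033809 they lay a little above them without a call. *ELF3*, the scaffold of the complex, did not pass in either copy, and *BrELF3* (Bra034284) had 504 and 512 under 35D Ver, against 553 and 553 under 0D Ver (log2(fold-change) -0.12 ± 0.11 SE, limma adjusted p = 0.382). The other copy, Bra007774, had a log2(fold-change) of 0.00 (limma adjusted p = 0.981).

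Several regulators outside the core loops changed. All 3 copies of *CHE*, a TCP factor that represses *CCA1* in Arabidopsis, fell by more than 1 on the log2 scale. *BrCHE* (Bra005984, match AT5G08330) had normalized counts of 257 and 273 under 35D Ver, against 582 and 594 under 0D Ver (log2(fold-change) -1.15 ± 0.11 SE, limma adjusted p = 1.47e-04). Bra028662 had 156 and 156 under 35D Ver, against 342 and 386 under 0D Ver (log2(fold-change) -1.22 ± 0.13 SE, limma adjusted p = 2.17e-04). Bra009338 had 133 and 115 under 35D Ver, against 245 and 284 under 0D Ver (log2(fold-change) -1.09 ± 0.15 SE, limma adjusted p = 7.92e-04). These were the only members that fell by at least 1, and no library of one group reached into the other. *BrLWD1* (Bra026947), a match of a WD-repeat coactivator of *CCA1*, had 583 and 490 under 35D Ver, against 912 and 808 under 0D Ver (log2(fold-change) -0.68 ± 0.13 SE, limma adjusted p = 0.00335) and so fell. *BrJMJD5* (Bra035742, match AT3G20810), a match of a histone demethylase gene that affects period length, had 284 and 312 under 35D Ver, against 74.6 and 62.2 under 0D Ver (log2(fold-change) 2.11 ± 0.16 SE, limma adjusted p = 3.79e-05) and so rose. Of the copies of *TIC*, a nuclear regulator that the clock needs around dawn, none passed (limma, and none of the 3 had an unadjusted p below 0.05 either). *BrTIC* (Bra039947), the copy with the most counts, had 9037 and 8979 under 35D Ver, against 9352 and 7629 under 0D Ver (log2(fold-change) 0.09 ± 0.13 SE, limma adjusted p = 0.602).

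The *CDF* genes encode repressors of *CO* and *FT*, and 3 of 7 rose, 1 fell and 3 did not pass, beside 20.1% higher and 20.5% lower of all tested genes, with a median log2(fold-change) of 0.48. *BrCDF3* (Bra018141, match AT3G47500) fell, with 1182 and 1083 normalized counts in the 35D Ver libraries, against 1619 and 1670 in the 0D Ver libraries (log2(fold-change) -0.54 ± 0.10 SE, limma adjusted p = 0.00413). *BrCDF1* (Bra029261) had 157 and 193 under 35D Ver, against 113 and 126 under 0D Ver (log2(fold-change) 0.54 ± 0.16 SE, limma adjusted p = 0.0280). *BrCDF2* (Bra025655) had 143 and 189 under 35D Ver, against 119 and 83.0 under 0D Ver (log2(fold-change) 0.72 ± 0.21 SE, limma adjusted p = 0.0277). These 2 increases were small, and neither gene passed without 35D Ver replicate 2 (adjusted p = 0.164 for *CDF1* and 0.134 for *CDF2*) or without 0D Ver replicate 2 (adjusted p = 0.0705 for *CDF1* and 0.173 for *CDF2*). *CDF1* did not pass without 0D Ver replicate 1 either (adjusted p = 0.137). For *CDF5*, Bra003994 had 79.7 and 89.3 under 35D Ver, against 45.1 and 54.9 under 0D Ver (log2(fold-change) 0.75 ± 0.20 SE, limma adjusted p = 0.0161), and it did not pass without 35D Ver replicate 2 (adjusted p = 0.0780) or without 0D Ver replicate 1 (adjusted p = 0.0948). Bra004396, the *CDF5* copy with more counts, had 255 and 258 under 35D Ver, against 248 and 255 under 0D Ver (log2(fold-change) 0.03 ± 0.12 SE, limma adjusted p = 0.880). The second copies of *CDF1* (Bra010082) and *CDF2* (Bra028437) had log2(fold-change) values of 0.48 and 0.30 and did not pass (limma adjusted p = 0.0899 and 0.173). None of the 7 *CDF* genes reached 1 in size on the log2 scale.

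Replicates of 35D Ver were not equally high in these genes. Replicate 2 was above replicate 1 in 40 of the 58 members (69.0%), and in 21 of the 28 genes of the dawn to morning class, beside 48.3% of all tested genes. The largest such gap among the members that rose by at least 1 was that of *BrCIR1*, described above. Its part in the calls was not tested beyond the fits that left out a library, under which 24 members were higher without 35D Ver replicate 2 and 32 without 35D Ver replicate 1.

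Copies of the same locus were compared next, since *B. rapa* often keeps several copies of an Arabidopsis gene. Of the 30 loci with a tested member, all copies were higher in 14, all were lower in 5, some but not all passed in 6, and none passed in 5 (limma). No locus had copies called in opposite directions. Among the loci with all copies higher are *RVE1* and *LNK2*, with copies that passed the low-count filter only with the help of the 35D Ver libraries. Of the 21 loci with more than 1 tested copy, these counts were 10, 2, 6 and 3. Loci outside the list were not classed in this way, so whether such counts are usual was not tested. Of all tested genes, 20.1% were higher and 20.5% were lower. The log2(fold-change) differed between copies in 5 of 35 pairs (limma on the log2 ratio of the copies within each library, adjusted over 16925 pairs), which is 14.3%, beside 7.30% of all such pairs. The median size of the difference was 0.24 over the 35 pairs and 0.18 over all pairs. Reads that fit more than 1 copy may have been split or shared between similar copies, and how the authors treated them is not given in the sources used here.

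The 2 copies of *LUX* differed most among the pairs that passed. Bra018204 rose by 1.68 ± 0.07 SE more on the log2 scale than Bra033809 (limma adjusted p = 0.0310). It gave 47.3% and 47.4% of the summed *LUX* counts in the 35D Ver libraries, against 22.7% and 21.0% in the 0D Ver libraries. *TOC1* Bra012964 rose by 0.69 ± 0.06 SE more than Bra035933 (limma adjusted p = 0.0409), and its share of the *TOC1* counts was 58.3% and 56.6% in the 35D Ver libraries, against 46.2% and 44.9% in the 0D Ver libraries. Such shares also depend on the length of each copy, so only their change between the groups is compared. *PRR5* Bra036517 rose by 0.79 ± 0.05 SE more than Bra029407 (limma adjusted p = 0.0315), and *RVE4* Bra005751 rose by 0.66 ± 0.08 SE more than Bra009562 (limma adjusted p = 0.0475). For *LKP2*, the difference of Bra038832 from Bra038830 was 0.48 ± 0.05 SE (limma adjusted p = 0.0446). The study names Bra038832 *BrFKF1*, so these genes may not be copies of the same gene. The differences kept their size when any 1 library was left out, at 1.60 to 1.75 for *LUX*, 0.64 to 0.74 for *TOC1*, 0.77 to 0.81 for *PRR5*, 0.60 to 0.73 for *RVE4* and 0.44 to 0.51 for *LKP2*. None of the 5 pairs then passed, with adjusted p of 0.145 or more whether 35D Ver replicate 1, 35D Ver replicate 2, 0D Ver replicate 1 or 0D Ver replicate 2 was left out. A block for the replicate number, or no filter on low counts, also left 0 of the 35 pairs called (limma), with 13 at an unadjusted p below 0.05 in each. In all of these fits 0 pairs of any locus passed, beside 1236 of all pairs called with the 4 libraries, so the loss was not particular to the clock copies.

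**Figure D4:**
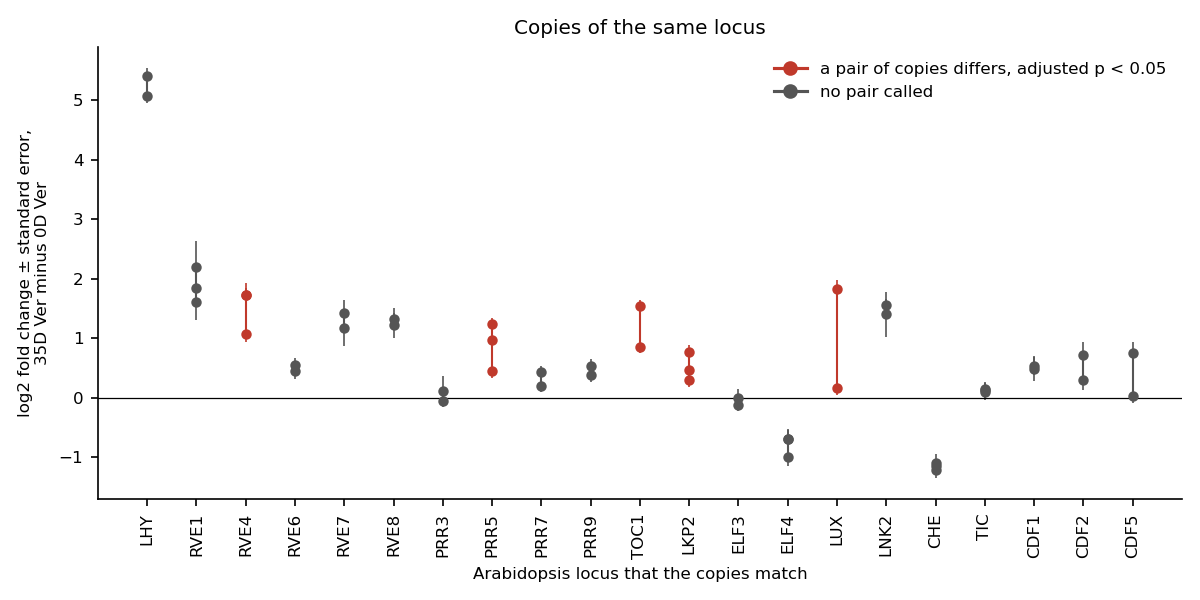
log2 fold change (35D Ver minus 0D Ver, ± 1 standard error) of each tested copy of the 21 loci with more than 1 tested copy, with the copies of a locus joined by a line. The 5 loci with a pair that differs (limma adjusted p below 0.05 over all pairs, with all 4 libraries) are red, and *LUX* has the widest gap among them, with copies at 1.84 and 0.16.

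Among other genes of clock input and output, 21 loci were listed and 20 were matched by 38 genes. Of the 36 tested, 9 were higher and 7 were lower (limma), with a median log2(fold-change) of -0.04, beside the 20.1% and 20.5% of all tested genes. The largest increases were those of *CO* (Bra008669), the target of the CDFs, at 1.30, the *LNK3* match Bra034762 at 1.09 and the *FIO1* match Bra030323 at 0.78. *CO* was low, with 55.9 and 52.0 normalized counts in the 35D Ver libraries, against 26.5 and 17.1 in the 0D Ver libraries. The other *LNK3* copy, Bra001449, did not pass (log2(fold-change) 0.01, limma adjusted p = 0.982). The largest decreases were those of *GRP7* (Bra030284) at -1.11 and of the *GRP8* copies Bra011869 at -0.99 and Bra001972 at -0.94, RNA-binding proteins whose genes are driven by the clock in Arabidopsis.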

How the data were processed

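The 4 shoot libraries were deposited as read counts per gene, which the authors made by trimming with SolexaQA and mapping with Bowtie2 to *B. rapa* gene sequences from the BRAD database. The counting tool and the treatment of reads that map to more than 1 gene are not given in the sources used here. The deposited counts are not scaled, are written with commas in values of 1000 and more, and have a lowest value of 1 in every library, so they were not treated as plain counts and were analysed on a log2 scale. Columns of the authors' own comparisons are not in the tables used here.

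Counts were scaled by the trimmed mean of M-values (trim of 0.3 and 0.05), written in R 4.3.3, and genes were kept with at least 10 scaled counts in at least 2 libraries and 15 in total. The log2(normalized count + 1) was fitted with limma 3.58.1 (trend, robust), with condition as the only term, and Benjamini-Hochberg adjustment covered the 29691 genes tested. A fold change on this scale understates the change of low genes. Copy pairs were fitted on the log2 ratio of copies within each library, for loci with up to 6 copies. Data with 29919 tested genes were simulated. Of 100 genes changed by 2 on the log2 scale 100 were called, and of 100 changed by 1, 93 were called. Of the unchanged genes, 3 were called. The simulation changed only 200 genes, left low genes unchanged, and gave every gene the same relative spread beyond counting error. In the real data 40.6% of all tested genes were called and the spread differs between genes, so these rates need not hold for the calls made here. Within a group, chi-square per degree of freedom was 10.2 (35D Ver) and 9.30 (0D Ver), beside 71.3 to 80.4 between groups, so no library was counted as a repeat of another.

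The members, gene lists and phase classes were chosen with earlier results of these data known. Every member may be named. Full values are given for members called with a log2 fold change of at least 1 in size and for the copy with the most counts of each locus, and of the related genes up to 3 in each direction. Alternatives were other scaling, filters, pseudocount, weights, moderation, thresholds, a replicate block and each library left out. Primer sequences were copied from the study's primer table, and no positions are given, since the gene annotation used here is of another assembly. Figures were drawn with matplotlib 3.10.9.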

Additional observations from a re-analysis of the deposited data

How the results depend on the processing

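Between 24 and 35 members were higher and between 7 and 10 lower under every other scaling, filter, pseudocount, weight, moderation, block and left-out library, beside 34 and 9. Of these, 23 and 7 passed in every alternative in which they were tested. The 4 fits without 1 library gave 24 to 32 higher and 7 to 9 lower members, and 3843 to 4664 higher and 3699 to 5154 lower genes of all tested, beside 5969 and 6073. The lone library of a group is then assumed to vary like the other group. A log2 fold change of at least 1 left 24 members and 4076 genes, and the study's criteria, with their 500 counts read as a mean of the higher group, left 8 members and 920 genes. Some values near 0 changed sign, all of genes that did not pass. With total counts only, *ELF3* Bra007774 and *LNK1* Bra024273 were at -0.0026 and -0.0010. Without 1 library, Bra007774 ranged from -0.19 to 0.20 (-0.011 without 0D Ver replicate 2), Bra024273 from -0.074 to 0.087, *PRR3* Bra020263 from -0.039 to 0.26, *TIC* Bra039947 from -0.054 to 0.24 and *TIC* Bra023830 from -0.021 to 0.28. The copy comparison depended most on the processing. With limma, 0 of the 5 pairs passed with no filter (13 pairs at an unadjusted p below 0.05), with the replicate number as a block (13) or without 1 library (9 to 13), and 7 passed with the stricter filter and without robust moderation. The member pairs followed the pairs of all loci, of which 0 passed wherever no member pair did, and 1558 (stricter filter) and 1663 (not robust) passed, beside 1236. A trend on the lower mean of the copies, chosen after seeing the data, gave 13 pairs, beside 22.0% of all pairs called. The numbers are shared but pair nothing in the labels, and deviations of libraries with the same number correlated at -0.17 over all genes and -0.62 over the 58 members. With the block, 32 members were higher and 9 lower. Crossed numbers, also chosen after seeing the data, gave 35 higher and 10 lower members and 0 pairs (16 at an unadjusted p below 0.05). The causes were not tested. With 2 libraries per condition, genes under about 10 normalized counts are limited by counting error.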
